A study of Mus musculus with 12 samples.

Results

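MicroRNA genes other than let-7 were followed through the copy-number tables of a pair of mouse pancreatic ductal adenocarcinoma (PDAC) lines. A gene was taken when its name in the segment tables began with Mir and a digit, on an autosome, and was neither a let-7 gene nor a host transcript. This gave 595 names in either line, and they were the same names. They stood among 21139 gene names in the autosomal segments. Mir5098 was named in 4 segments and was left out, so 594 genes were counted below. RefSeq on GRCm38.p6 put 581 of the 594 inside the segment that named them. The other 13 had no single position there, as copies of one name lie at several places.

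The lines 15376T and 14837T are primary cultures from tumors of C57BL/6 mice that carried ROSA_rtTA, p48-Cre and Trp53 L/+ among their engineered alleles, and both lines shared every engineered allele. The p48 promoter drives Cre in pancreatic progenitors and acinar cells, and the methods name doxycycline, which activates rtTA, as part of the medium. The labels call both lines WT, which here means that LIN28B was not knocked out. Genomic DNA of each line was sequenced by whole-exome sequencing (WES) as 1 library, labelled WES-15376T and WES-14837T and called 15376T and 14837T here, so no value below has a replicate and no test was possible. The question is how the copy number of these genes differed between the lines.

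A microRNA gene is transcribed as a hairpin, which is cut to a mature strand of RNA. The bases near the 5′ end of the mature strand, the seed, pair with target messages and lower their translation and stability, so genes with the same seed repress overlapping sets of targets. Many microRNA genes lie in clusters that are transcribed as one RNA, and several families have paralogous clusters on different chromosomes.

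WES reads over a bin of the genome were set against a reference by the authors, and neighboring bins with a common log2 ratio were joined into a segment. Each segment had an integer copy number, and over 2 copies is called gained here and under 2 copies lost. These calls followed a log2 above 0.2 for a gain and a log2 of -0.25 or lower for a loss with 0 exceptions among autosomal segments in either line. All genes of a segment share its log2, so neighboring genes are not independent values. The SD of log2 among segments called at 2 copies was 0.0898 in 15376T and 0.0953 in 14837T, which gives an SD of 0.131 for a difference between the lines. Segments at 2 copies lie between the thresholds, so a difference between loci of unlike call tends to exceed these SDs. The SDs also do not measure the error of a single locus. The mean read depth of the autosomes was 43.4 and 47.5. The kit named in the labels and the one named in the methods differ, and both were designed for human exons. Copy number says nothing of how strongly a gene was transcribed.

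The mature strands of families whose paralogs lay in segments with different calls are printed first, from RefSeq on GRCm38.p6, because they show which seeds were carried by gained and by lost DNA at the same time. Capitals mark the seed, bases 2 to 8 from the 5′ end. In the miR-15/16 family the chromosome 14 pair was lost in both lines, the chromosome 3 pair was gained in both lines and Mir195a on chromosome 11 was at 2 copies.
Mir15a, chromosome 14: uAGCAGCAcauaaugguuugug
Mir16-1, chromosome 14: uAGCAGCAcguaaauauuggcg
Mir15b, chromosome 3: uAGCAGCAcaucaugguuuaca
Mir16-2, chromosome 3: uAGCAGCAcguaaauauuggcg
Mir195a, chromosome 11: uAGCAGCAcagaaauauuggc

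The pluripotency clusters on chromosomes 7 and 3 share a seed and had opposite calls in both lines, the first lost and the second gained.
Mir291a, chromosome 7: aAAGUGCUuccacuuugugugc
Mir294, chromosome 7: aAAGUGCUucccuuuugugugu
Mir302b, chromosome 3: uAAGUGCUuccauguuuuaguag
Mir302d, chromosome 3: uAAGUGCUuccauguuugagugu

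The seed of miR-17 differs from theirs by a shift of 1 base. Its genes are shown because the cluster on chromosome 14 was lost in both lines, whereas its paralog on chromosome 5 was at 2 copies in 15376T and gained in 14837T.
Mir17, chromosome 14: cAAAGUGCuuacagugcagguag
Mir20a, chromosome 14: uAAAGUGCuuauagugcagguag
Mir106b, chromosome 5: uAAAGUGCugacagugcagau
Mir93, chromosome 5: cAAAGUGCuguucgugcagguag

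The miR-200 genes are shown because the cluster on chromosome 4 was lost in both lines and Mir200c on chromosome 6 was gained in 15376T. Mir200a differs from the others within its seed.
Mir200a, chromosome 4: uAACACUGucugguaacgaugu
Mir200b, chromosome 4: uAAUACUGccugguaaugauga
Mir429, chromosome 4: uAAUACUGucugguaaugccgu
Mir200c, chromosome 6: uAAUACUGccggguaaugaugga

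Genes for one identical mature strand also had different calls. Mir26a-1 was lost in 15376T alone and Mir26a-2 in 14837T alone, and Mir9-1 was gained and Mir9-2 lost in 14837T.
Mir26a-1, chromosome 9: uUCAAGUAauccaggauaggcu
Mir26a-2, chromosome 10: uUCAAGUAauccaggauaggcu
Mir9-1, chromosome 3: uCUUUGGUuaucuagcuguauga
Mir9-2, chromosome 13: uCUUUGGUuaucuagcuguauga

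Of the 594 genes, 47 (7.91%) were gained and 151 (25.4%) lost in 15376T, against a background of 9.09% gained and 30.0% lost among the 20952 gene names that lay in 1 autosomal segment of each line. In 14837T 115 (19.4%) were gained and 162 (27.3%) lost, where the background was 21.4% and 28.8%. MicroRNA genes thus had shares near those of all genes in either line. The median log2 of the microRNA genes was 0.0030 in 15376T, within a range of -0.65 to 1.99, and -0.036 in 14837T, within a range of -0.81 to 0.65. The medians of all names were -0.023 and -0.045. None was called at 0 copies in either line, and above 3 copies there were 5 genes, all in 15376T. Over all names the log2 ran from -1.23 to 3.91 in 15376T and from -8.74 to 3.62 in 14837T. Values far beyond those of the microRNA genes were thus seen in both lines. The shares of all names at these copy numbers were not computed.

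The 2 lines had different calls for 148 microRNA genes (24.9%), with a background of 29.3%. Both lines had lost 122 of the genes (20.5%, background 22.4%), and both had gained 39 (6.57%, background 6.87%). Another 285 (48.0%, background 41.5%) were at 2 copies in both. The most frequent difference was a gene at 2 copies in 15376T that was gained in 14837T, which held for 74 genes (12.5%, background 13.4%). The reverse, a gene gained in 15376T and at 2 copies in 14837T, held for 5 genes (0.842%, background 1.87%). A loss in 14837T with 2 copies in 15376T was seen for 37 genes (6.23%, background 6.03%). A loss in 15376T with 2 copies in 14837T was seen for 27 genes (4.55%, background 6.43%). Among the 122 genes lost in both lines the median log2 was -0.55 in 15376T and -0.41 in 14837T, and it was lower in 15376T for 119 of them. These 122 genes lay in 12 segments of 15376T and 24 of 14837T, so they give far fewer independent values than genes. The same was not computed over all names lost in both lines, so it is not shown to be particular to microRNA genes. For the 39 genes gained in both lines the medians were 0.49 in 15376T and 0.50 in 14837T. Of these, 22 were lower and 17 higher in 15376T.

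The calls of the microRNA genes differed between chromosomes, and for some of them gains and losses are given beside the share of all gene names of the same chromosome. All 14 microRNA genes on chromosome 16 were lost in both lines, as were 100% of the names there. On chromosome 7 all 48 were lost in 15376T and 45 in 14837T, where 100% and 96.8% of the names were lost. On chromosome 4 the counts were 35 of 35 and 31 of 35, with 100% and 76.8% of the names. On chromosome 3 the gained genes were 16 of 23 in 15376T and all 23 in 14837T, with 71.1% and 100% of the names. The lines parted on chromosome 17, where all 27 genes were at 2 copies in 15376T and gained in 14837T, as were 95.3% of the names in that line. They also parted on chromosome 13, where all 18 were at 2 copies in 15376T and lost in 14837T, with 76.8% of the names. Chromosome 10 had 16 of 23 genes and 50.5% of the names lost in 14837T. Chromosome 9 had 13 of 26 genes and 57.8% of the names lost in 15376T, and 7 genes and 21.8% of the names gained in 14837T. The 49 genes on chromosome 2 and the 57 on chromosome 11 were at 2 copies throughout. Shares of all names at 2 copies were not computed for these chromosomes, nor for chromosomes 17 and 13 in 15376T.

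**Figure D1:**
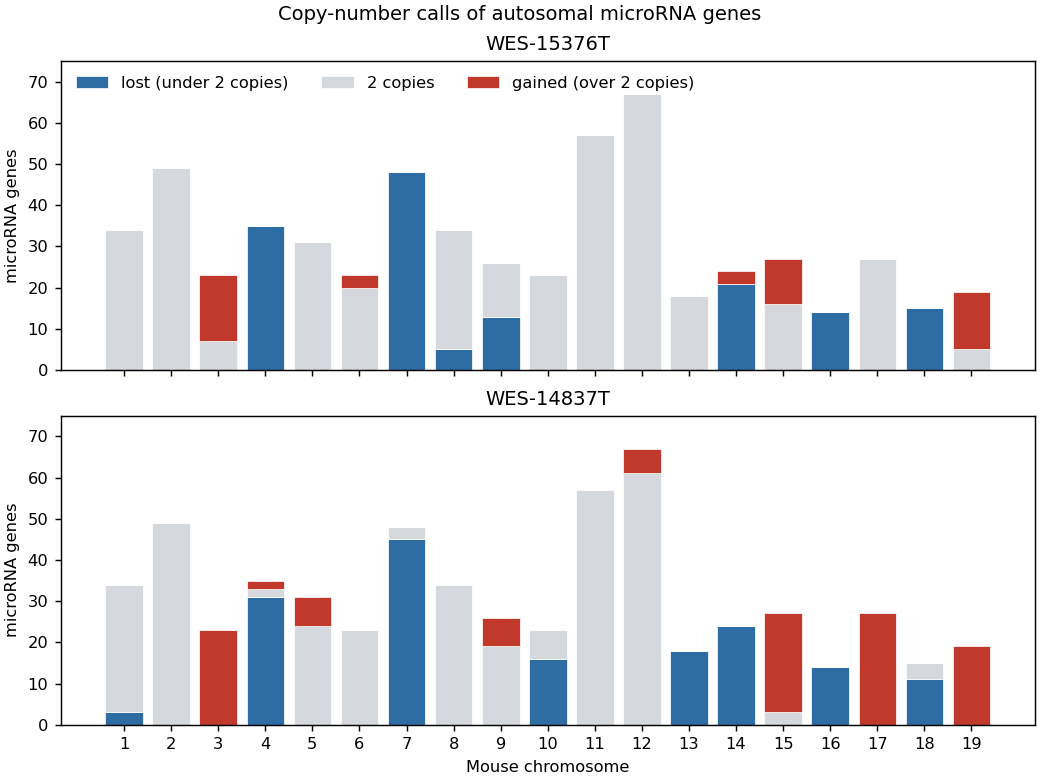
Number of microRNA genes (vertical axis) called lost, at 2 copies and gained on each autosome (horizontal axis) in the 2 libraries. All 14 genes on chromosome 16 are lost in both libraries, and the 27 genes on chromosome 17 are gained and the 18 on chromosome 13 lost in 14837T alone.

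**Figure D2:**
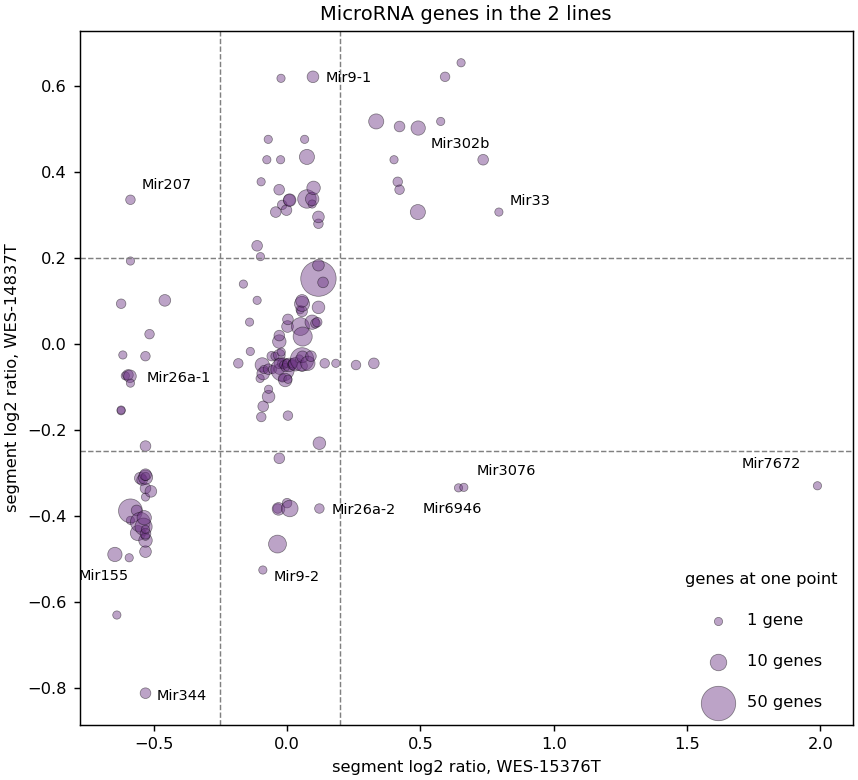
Segment log2 ratio of each microRNA gene in 15376T (horizontal axis) and 14837T (vertical axis), with the area of a point growing with the number of genes at it and dashed lines at the thresholds of 0.2 and -0.25. The genes of opposite call stand apart, with Mir7672 at 1.99 and -0.33, and most genes at 2 copies in one library and gained in the other lie in the upper middle field.

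To describe genes by role, 68 loci with a known name were listed, of which 64 were found, holding 145 genes. The loci Mir210, Mir7-2, Mir9-3 and Mir122 were not analysed here. Of the 64 loci, 12 were lost in both lines (18.8%, background 22.4%), 4 gained in both (6.25%, background 6.87%), 30 at 2 copies in both (46.9%, background 41.5%) and 18 differed in call (28.1%, background 29.3%). In 15376T 6 were gained and 14 lost (9.38% and 21.9%), where the background was 9.09% and 30.0%. In 14837T 13 were gained and 17 lost (20.3% and 26.6%), where it was 21.4% and 28.8%. Opposite calls, a gain against a loss, were seen at 0 of them, with a background of 1.55%. With 64 loci, a count of 0 is near that share.

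The growth-promoting loci were lost, at 2 copies or gained. The Mir17-92 cluster (chromosome 14, from 115043671 to 115044506), a polycistron of 6 genes known as an oncogene of lymphoma, had a log2 of -0.55 in 15376T and -0.41 in 14837T. Its paralog, the Mir106b-25 cluster (chromosome 5, from 138165321 to 138165818), lies in the span of the replication gene Mcm7 and had a log2 of 0.094 and 0.34. The paralogs thus had different calls in each line. Mir21a (chromosome 11, from 86584067 to 86584158), which represses tumor suppressors and lies in the span of Vmp1, had a log2 of 0.056 in 15376T and 0.075 in 14837T. These values differed by less than the SD of a difference. Mir155 (chromosome 16), an immune and oncogenic microRNA, was lost in both lines, at -0.65 and -0.49. Mir31 (chromosome 4), a close neighbor of the Cdkn2a locus, was also lost in both, at -0.59 and -0.39.

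Among microRNAs with tumor suppressive roles, Mir34a (chromosome 4), a direct p53 target that represses cell cycle genes, had a log2 of -0.56 in 15376T and -0.39 in 14837T and was lost in both. Mir34b (chromosome 9), from the other p53-induced locus of the same seed, was at 2 copies, at -0.058 and -0.029. Of the genes whose strands are printed above, Mir15a and Mir16-1 (chromosome 14, from 61631880 to 61632110) shared the segment of Mir17-92 in both lines and so its log2 of -0.55 and -0.41. Mir15b and Mir16-2 (chromosome 3, from 69009772 to 69009996), in the span of the condensin gene Smc4, stood at 0.41 and 0.38. The miR-15/16 strands repress cyclins and Bcl2, and the loci with this seed were at 3 different calls in each line.

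The 3 genes of the miR-26 seed lie in the spans of the phosphatase genes Ctdspl, Ctdsp2 and Ctdsp1. Mir26a-1 had a log2 of -0.59 in 15376T and -0.075 in 14837T, whereas Mir26a-2 had 0.12 and -0.38. Mir26b was at 2 copies, at 0.031 and -0.048. Each line had thus lost a single one of these genes, and not the same one. Mir101a (chromosome 4), a repressor of the histone methyltransferase Ezh2, was lost in both lines at -0.59 and -0.39, and its paralog Mir101b (chromosome 19) stood at -0.030 and 0.36. Mir145a (chromosome 18), a microRNA of smooth muscle, was lost in both at -0.56 and -0.44. Both loci of the miR-29 family, which represses collagens, were at 2 copies in both lines.

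The p53-responsive pair of loci for miR-192 and miR-215, which share a seed, differed from each other. The cluster of Mir192 and Mir194-2 (chromosome 19) was gained, at 0.33 in 15376T and 0.52 in 14837T. The cluster of Mir215 and Mir194-1 (chromosome 1) stood at -0.029 and -0.27, just past the threshold of a loss in 14837T. When the log2 values of the line were centred again on its autosomal median, the latter became -0.22 and the call 2 copies.

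Epithelial microRNAs of the miR-200 family repress Zeb1 and Zeb2 and so maintain E-cadherin. Their cluster of Mir200a, Mir200b and Mir429 (chromosome 4, from 156053905 to 156055750) had a log2 of -0.51 in 15376T and -0.34 in 14837T, a loss in both. Mir200c (chromosome 6, from 124718322 to 124718390) had 0.33 and -0.045. The difference between the lines at Mir200c was 0.37, with a gain in 15376T and 2 copies in 14837T. Mir205 (chromosome 1) and the cluster of Mir182, Mir96 and Mir183 (chromosome 6) were at 2 copies in both lines. Mir203 (chromosome 12), a microRNA of the skin, stood at 0.12 and 0.29 and was gained in 14837T.

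Of the microRNAs of the normal pancreas, the acinar loci and Mir375 were at 2 copies in both lines, as were 41.5% of all gene names. The acinar cluster of Mir216a, Mir216b and Mir217 (chromosome 11) had a log2 of 0.056 in 15376T and -0.036 in 14837T. Mir148a (chromosome 6), abundant in the exocrine pancreas, had -0.029 and -0.045, and the islet microRNA Mir375 (chromosome 1) had 0.031 and -0.048. None of these differed by more than the SD of a difference. Mir7-1 (chromosome 13), in the span of Hnrnpk, and Mir7b (chromosome 17), which carry the seed of the islet microRNA miR-7, were at 2 copies in 15376T, at -0.036 and -0.0025. In 14837T they moved apart, to -0.47 and 0.31.

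The pluripotency clusters of embryonic stem cells were among the loci with opposite calls in one and the same line. The 7 genes followed from the Mir290 to Mir295 cluster (chromosome 7, from 3218919 to 3220841) shared a log2 of -0.54 in 15376T and -0.42 in 14837T. Mir290a and Mir290b were not among the genes followed. The 5 genes of the cluster of Mir302 and Mir367 (chromosome 3, from 127545228 to 127545807), in the span of Larp7, shared 0.49 and 0.50. The paralogous clusters of miR-125 and miR-99, which neighbor let-7 genes, also parted. Mir125b-2 and Mir99a (chromosome 16) were lost at -0.65 and -0.49, Mir125a and Mir99b (chromosome 17) stood at 0.074 and 0.34, and Mir100 (chromosome 9) was at 2 copies in both lines.

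The Mir30 family had a gained, a lost and a 2-copy locus in 15376T. Mir30b and Mir30d (chromosome 15) stood at 0.26 in 15376T and -0.049 in 14837T. Mir30e and Mir30c-1 (chromosome 4), in the span of Nfyc, were lost in both, at -0.59 and -0.39. Mir30a and Mir30c-2 (chromosome 1) were at 2 copies in both. Of the paralogous clusters of miR-23, miR-27 and miR-24, Mir23b-27b-24-1 (chromosome 13) was at -0.036 and -0.47, while Mir23a-27a-24-2 (chromosome 8) was at 2 copies in both. Mir146 (chromosome 11) and Mir146b (chromosome 19), which share a seed and dampen NF-kB signaling, had 0.056 and 0.065 in 15376T, and -0.036 and 0.48 in 14837T. Mir103-1 and Mir103-2 were at 2 copies in both lines, and Mir107 (chromosome 19), with the same seed as Mir103-1 and in the span of Pank1, was gained in 14837T at 0.36.

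Of the neural loci, Mir9-1 had a log2 of 0.097 in 15376T and 0.62 in 14837T, and Mir9-2 had -0.091 and -0.53. The Mir124a loci kept their calls across the lines, with Mir124a-1 lost, Mir124a-2 gained and Mir124a-3 at 2 copies. Of the muscle loci, Mir1a-2 (chromosome 18) was lost in 15376T alone, at -0.62 against 0.093. The others were at 2 copies. The 5 microRNA genes listed from the Hox clusters were at 2 copies, except Mir196a-2 (chromosome 15), which was gained in 14837T at 0.33. The 3 loci of the Mir181 family, the pair Mir132 and Mir212 and the pair Mir451a and Mir144 were at 2 copies in both lines.

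The imprinted Dlk1-Dio3 region (chromosome 12, from 109563692 to 109743795), around Rtl1, held the most genes of any named locus, 37. Its segment had a log2 of 0.12 in 15376T and 0.15 in 14837T, under the threshold of a gain in both lines. Recentring took the value of 14837T to 0.20, just past the threshold.

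**Figure D3:**
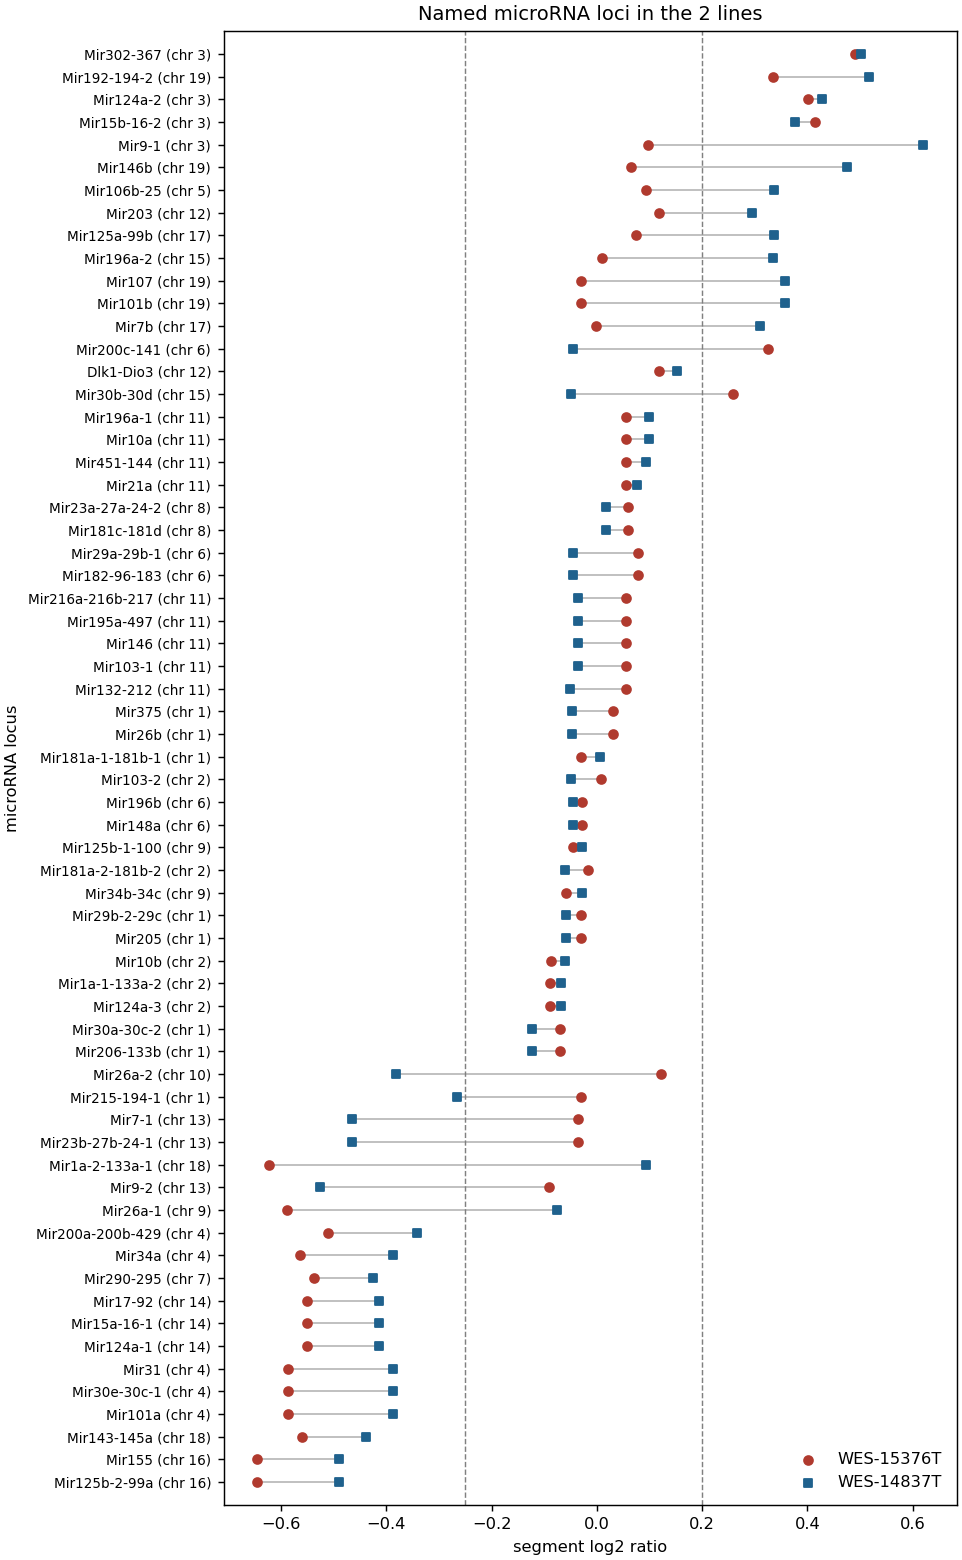
Segment log2 ratio (horizontal axis) of the 64 named microRNA loci found (vertical axis), sorted by the mean of the 2 libraries, with dashed lines at the thresholds of 0.2 and -0.25. The cluster of Mir302 and Mir367 is highest at 0.49 and 0.50, and Mir155 and the cluster of Mir125b-2 and Mir99a are lowest at -0.65 and -0.49.

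Seeds were compared over all members with a sequence. RefSeq held mature strands for 538 of the 594 genes, and 98 seeds were carried by more than 1 locus, with both arms of a hairpin counted. At 76 of the 98 seeds the loci did not all share a call in at least 1 line. The same was not counted for sets of loci without a common seed. The counts here thus do not show whether loci of one seed differed in call more than other genes. A gained and a lost locus stood together at 8 seeds in 15376T, at 22 in 14837T and at 5 in both lines. All loci were lost at 4 seeds in 15376T and 5 in 14837T, and all were gained at 2 seeds in either line. Seeds can be shared by genes that are not otherwise related. The annotated strands of Mir101b and Mir302c start 1 base apart from those of their families, so both fell outside the family seed, and the lost Mir101a and gained Mir101b of 14837T are not among the 22.

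The highest log2 of a microRNA gene was 1.99, at Mir7672 (chromosome 14, from 26669547 to 26669608), in the span of Pde12. It was called at 8 copies in 15376T, in a segment of 33 bins, and its log2 in 14837T was -0.33. Mir33 (chromosome 15, from 82198122 to 82198190), which lies in the span of Srebf2 and represses cholesterol export, came next in 15376T. It stood at 0.79 there, with 4 copies, and at 0.31 in 14837T. Mir1897, Mir551b and Mir7008 (chromosome 3) shared 0.74 and 0.43, also at 4 copies in 15376T.

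At the low end of 15376T were 7 genes of chromosome 16 at -0.65, namely Mir125b-2, Mir155, Mir568, Mir691, Mir6964, Mir802 and Mir99a. Mir6947 (chromosome 14), in the span of Actr8, followed at -0.64 and was nearly as low in 14837T, at -0.63. The 4 genes Mir1893, Mir1901, Mir1a-2 and Mir1b (chromosome 18) shared -0.62. The lowest value of 14837T was -0.81, at Mir344, Mir344-2 and Mir344g (chromosome 7), in a segment of 51 bins. These genes were at -0.53 in 15376T. Mir9-2 was the third from the bottom at -0.53.

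At the top of 14837T stood Mir6381 (chromosome 3), in the span of Gbp2, at 0.65 in either line. It was followed by the segment of Mir9-1 with 5 other genes at 0.62, and by Mir692-1 (chromosome 17) at 0.62, in a segment of 64 bins. The latter had -0.023 in 15376T.

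Opposite calls, a gain in one line against a loss in the second, were seen for 5 genes (0.842%), with a background of 1.55% over all names. Mir207 and Mir3094 (chromosome 4), in the spans of Dnaja1 and Nfx1, had -0.59 in 15376T and 0.33 in 14837T. On chromosome 14 the direction was the reverse. Mir3076, in the span of the pentose phosphate gene Tkt, had 0.66 and -0.33, Mir6946, in the span of Sec24c, had 0.64 and -0.33, and Mir7672 had 1.99 and -0.33. The mature strands on file for these genes include the following, shown because their calls were opposite, in either direction.
Mir7672, chromosome 14: cGGUGGACuugacagcgggcga
Mir207, chromosome 4: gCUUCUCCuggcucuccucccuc

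Many of the genes lie in other genes. Of the 581 genes with a position in their segment, 427 (73.5%) lay within the span of a protein-coding gene, whose strand was not compared. On RefSeq positions the genes formed 463 loci of neighbors within 10 kb, 52 of them with more than 1 gene. Every gene counted lay within 1 segment of each line, so only these 52 loci could cross a segment border, and 0 did. Loci of this size are short beside most segments, so the count says little about clusters.

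The one value that belongs to a gene and not to its segment is the read depth of its own bin, listed only for segments with an absolute log2 of about 0.4 or more. It was given for 185 genes in 15376T and 125 in 14837T. Depth varied widely between bins of one segment. In the Mir290 to Mir295 cluster the bin of Mir292 had a depth of 15.2 in 15376T and 24.1 in 14837T, and that of Mir294 and Mir295 had 97.4 and 109.1. The Mir302 genes shared a bin with 182.1 and 195.0. A depth can therefore not be read as a copy number, and only the ratio of the lines at the same bin is given below. The depths were first divided by the mean depth of 2-copy segments of each library, 46.0 and 47.5.

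For 72 single bins of microRNA genes the log2 ratio of the lines was set against the difference of their segments. The bin departed from the segment by a median of 0.063, with an SD of 0.45 and a range of -1.09 to 1.21. The median was 0.15 with depths divided by the mean of all autosomal segments, and these medians are small beside the SD. A departure over 0.5 was seen in 17 bins (23.6%), against a background of 6.87% of 611 single bins of other genes. MicroRNA bins are short, with a median length of 150 bp against 960 bp. Among bins of up to 200 bp the share was 13 of 50 microRNA bins (26.0%) and 18.3% of 82 other bins, and the SDs were 0.46 and 0.38. The gap was thus smaller between bins of like length, and the part of bin length in it was not tested further.

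The largest departures were those of Mir6359, Mir344 and Mir155. At Mir6359 (chromosome 18), in the span of Rttn, the depth was 51.0 in 15376T and 24.8 in 14837T, which was 1.21 above the segment difference. At Mir344 it was 11.6 and 20.9, which was 1.09 below. At Mir155 it was 34.9 and 18.9, which was 1.09 above, although the segment of Mir155 was the lower one in 15376T. Neighboring bins need not move together. In the Mir17-92 cluster the bin of Mir17 had a depth of 16.7 and 23.0, a departure of -0.28. The next bin, of Mir18 and Mir19a, had 83.7 and 47.8, a departure of 0.99, and the last bin, of Mir20a, Mir19b-1 and Mir92-1, had 93.3 and 62.3, a departure of 0.77. Read counts behind these depths were not part of the tables, so their counting error is unknown, and whether copy number changed within the cluster was not tested.

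**Figure D4:**
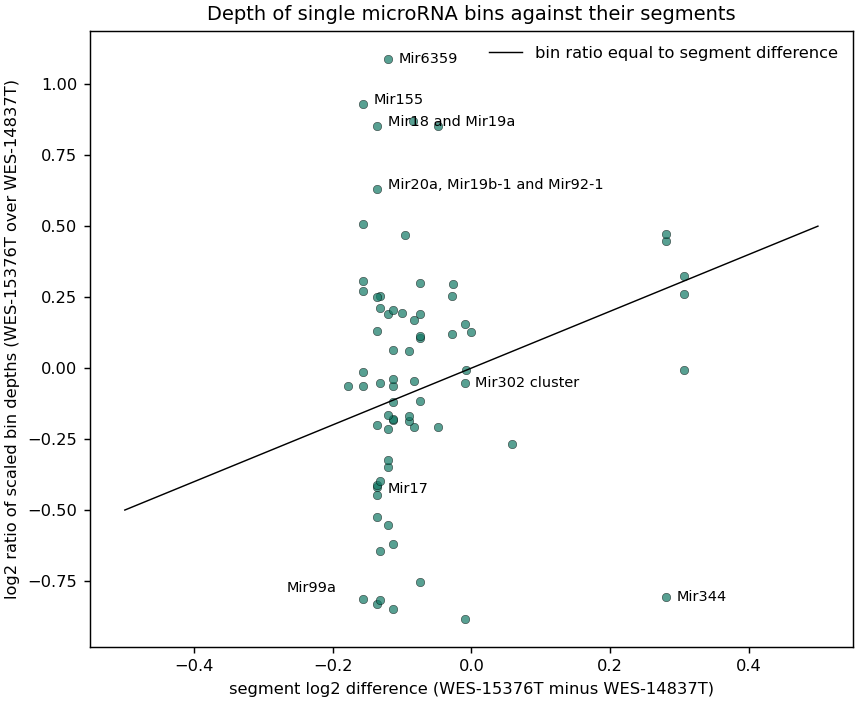
Log2 ratio of the scaled depth of single microRNA bins in 15376T over 14837T (vertical axis) against the difference of their segment log2 values (horizontal axis), with a line where both are equal. Bins scatter around the line with departures of -1.09 to 1.21, and the bins of Mir17 and of Mir18 with Mir19a lie on opposite sides of it.

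The B-allele fraction (BAF), the share of reads at variant sites of a segment that carried the other allele than the reference, was given for 586 of the genes in either line. Its median was 0.0683 in 15376T and 0.0612 in 14837T. It was over 0.9 for 42 genes in 15376T, of which 41 lay in a single segment of chromosome 11 with a BAF of 1 and a log2 of 0.056. Mir21a, Mir195a, Mir146, Mir10a and the Mir216a-216b-217 cluster are among them. In 14837T 14 genes were over 0.9, all on chromosome 11. Mir21a was one of them, at 0.97, and Mir132, Mir212, Mir144 and Mir451a were at 1. In that line the segment of Mir195a, Mir146 and the Mir216a-216b-217 cluster had a BAF of 0.027. These genes, at 2 copies in both lines by log2, thus lay in segments whose BAF stood at opposite ends of the scale. At either end nearly all reads of a site carry one allele. Whether the lines differed in allelic state there was not tested, and how sites were combined into a BAF is not known. The segment of 15376T ran from 3133019 to 99620437 and that of 14837T from 3133019 to 71169835. A BAF belongs to a whole segment, so a difference at the genes themselves is not shown. The share of all gene names with a BAF over 0.9 was not computed. The number of variant sites behind each BAF is not known.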

How the data were processed

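WES of 2 PDAC lines was used, with 1 library each; the RNA-seq samples and the tail DNA were not analysed here. The log2 ratios were deposited by the authors as coverage over that of a reference, on the log2 scale. The BAF was deposited as a fraction per segment. The depth was deposited as a coverage signal without normalization, and the weight deposited beside it is a score that was not used. The build is mm10 per the submitters' processing notes. The aligner, copy-number tool and reference are not given in the sources used here, and the columns are those that CNVkit writes. One of the engineered alleles is not reported here. Labels name a SureSelect human exome kit and the methods a NimbleGen one, which could leave uneven coverage of mouse exons.

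Members were found by name, and calls were the integer copy numbers of the authors. Positions, spans of genes and mature strands came from RefSeq on GRCm38.p6. Background shares covered the 20952 names in 1 autosomal segment of each line. Own depths were used for bins with the same limits in both lines. Named were the loci of a list of known microRNA loci, the genes of the 3 highest and 3 lowest segments holding a member in each line, genes of opposite call, and the 3 largest departures of own depth. Other genes of known families were named with their loci. The members and lists were chosen with earlier results of these data known. The finding of members by name, the shares of calls and the share of different calls were tested on simulated data. The other steps were not. With 1 library per line, no test or p-value was possible. Alternatives took calls from a log2 of 0.3 or 0.5 in size, recentred log2 and loci in place of genes. Others took segments of at least 100 bins, added sex chromosomes and used RefSeq positions in place of names. For own depth, they scaled on all autosomes or took genes of at least 2 bins. The removal of the 13 names outside their segment was added after seeing the data. Python 3.11.15, numpy 2.4.6, pandas 2.3.3, scipy 1.17.1 and matplotlib 3.10.9 were used.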

Additional observations from a re-analysis of the deposited data

How the results depend on the processing

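Of the alternative values, 298 moved by less than the spread and 12 moved by more. Many of them could not move by more. The 128 log2 values of named loci found from RefSeq positions were the same values. Recentring shifted every locus by an autosomal median of -0.0402 in 15376T and -0.049 in 14837T, which is smaller in size than the SD of 2-copy segments. The tally is therefore no measure of robustness. With calls from an absolute log2 of 0.5, the microRNA genes gained were 1.85% in 15376T and 4.55% in 14837T, those lost in 14837T were 0.842%, those at 2 copies were 73.4% and 94.6%, and those with different calls were 29.3%. With log2 recentred on the autosomal median, 29.1% were gained and 44.1% at 2 copies in 14837T, and 34.2% had different calls. With sex chromosomes added (651 names), 31.3% were lost and 61.4% at 2 copies in 15376T, and 57.5% were at 2 copies in 14837T. Recentring took 2 of 128 values of named loci past a threshold, both in 14837T, Mir215 from lost to 2 copies and Dlk1-Dio3 from 2 copies to gained. The threshold and the centre of log2 thus set how many genes are called. The median departure of own depth from the segment was 0.15 with depth scaled on all autosomal segments, against 0.063. Over the 3 genes whose own depth spans at least 2 bins it was 0.13, with values from -0.24 to 0.50. No paired analysis was possible because every line had 1 library and no result came from a test. The counts behind the depth of single bins are not known.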
